A study of Xenopus laevis with 2 samples.

Results

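The probes described are the members of the EBF transcription factor family on a *Xenopus laevis* Agilent array, read in animal caps in which the activity of EBF3 could be switched on. Probes were chosen from the gene probes by name (ebf2-A, ebf2-B and Xebf-3) or by a description naming early B-cell factor, Olf-1/EBF or collier/COE. These rules gave 3 of 21495 gene probes, each printed as 1 spot, and the descriptions added no probe beyond the 3 names. The EBF (COE) proteins bind DNA through a zinc-coordinating domain and form dimers through a helix-loop-helix region. They take their names from B cell and olfactory neuron factors of the mouse and from Collier of the fly. In the frog embryo *ebf2* is known as a gene of early neuronal differentiation that acts after the proneural neurogenin genes. There *ebf3* is known as a later gene of differentiating neurons. Earlier work cited by the paper places *neurod* after EBF2 and also before *ebf2* and *ebf3*. The paper also cites EBF2 as reinforcing the neurogenin NGNR-1. The question addressed here is whether transcripts of the family itself were at another level when EBF3 was active.

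Animal caps are explants of prospective ectoderm, cut at stage 9. The study compared 3 kinds of caps, and Noggin, which neuralizes such caps, was not added to any of them. Embryos at the 1-cell stage received 1 ng of mRNA for hGR-Xebf3, the EBF3 protein joined to the hormone-binding part of the human glucocorticoid receptor, or 0.4 ng of mRNA for the receptor part alone (hGR). Dexamethasone (DEX), a glucocorticoid, frees the fusion protein to act. The group hGR-Xebf3 with DEX was kept in 30 µM DEX in 1x MMR, a salt solution, for 4.5 h. The group hGR with DEX, the study's control for the hormone, was treated in the same way. The third group, hGR-Xebf3 without DEX, carried the fusion protein without the hormone. It lay for 4.5 h in MMR only and served as the reference on both arrays. Whether the fusion protein was inactive there was not tested. The hGR caps thus differed from their reference in DEX, in the injected message and in its amount, which cannot be told apart. No age beyond the stage, no strain and no number of pooled caps was given in the sources used here.

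Each array carried a treated sample in the Cy3 dye and the reference in the Cy5 dye. The array with hGR-Xebf3 with DEX is called the active EBF3 array and the other the hGR array. Each comparison had a single array and dyes were not swapped, so replicate error is unknown and no test was run. The errors printed are those the image software assigns to a spot, and they leave out the spread between batches of caps. Slide and group cannot be told apart. With active EBF3, 52.5% of the gene probes passed the background limit in Cy3 and 54.1% in Cy5, against 49.4% and 57.8% for hGR. A reading passed, and is called well above background, when its background-subtracted signal passed 2.6 SD of the background, by the flag of the software. Over the probes whose Cy5 passed on both arrays, the reference differed between arrays with an SD of 0.17 in log2 signal (11243 probes).

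The caps carried the transcripts of their labelled tissue. All 7 probes of the ectoderm list (epidermal keratins, *tfap2a*, *dlx3*, *foxi1* and E-cadherin) were well above background in all 4 channel readings. Their summed processed signal was 488622 in hGR-Xebf3 caps with DEX, 1101452 in the reference beside it, 843848 in hGR caps and 811904 in the reference on that array. Most of each sum came from 1 keratin probe, LOC397756 (*krt70.S*), which read 415421 and 815528 on the active EBF3 array. There all 7 probes were lower than the reference, from 1.21-fold for E-cadherin to 48.8-fold for *foxi1*. Of 4 neural probes, those for *sox2* and *sox3* were well above background in every reading and both probes for *ncam1* in none, with sums from 97342 to 193366. On the active EBF3 array *sox2* was 6.63-fold and *sox3* 1.17-fold higher than the reference. Of 3 mesoderm probes, both for *myod1*, a gene of muscle precursors, were well above background in every reading, and that for brachyury in none. The mesoderm sum was 226280 in hGR-Xebf3 caps with DEX, 3728 in the reference beside it, and 989 and 645 on the hGR array. Of 3 endoderm probes 1 was well above background in every reading, with sums from 441 to 615. Of 4 blood probes only *tal1* was well above background, and only in hGR-Xebf3 caps with DEX, where the list summed to 4868 against 278 to 383 elsewhere, while the 3 globin probes passed the limit in no reading. The part of these shifts in the values below was not tested.

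Of the 12 readings of the EBF family (3 probes in 4 channels), 7 were well above background. All 4 readings of ebf2-B passed the flag, as did 3 of 4 for ebf2-A and none for Xebf-3. In short, the ebf2-A transcript was read at 6.29-fold over the reference in caps with active EBF3 and at background in hGR caps with DEX. The ebf2-B transcript was read at 1.70-fold over the reference in the first and level with it in the second, and the *ebf3* probe gave no usable signal. In whole caps, more cells with a transcript and more transcript per cell cannot be told apart.

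**Figure D1:**
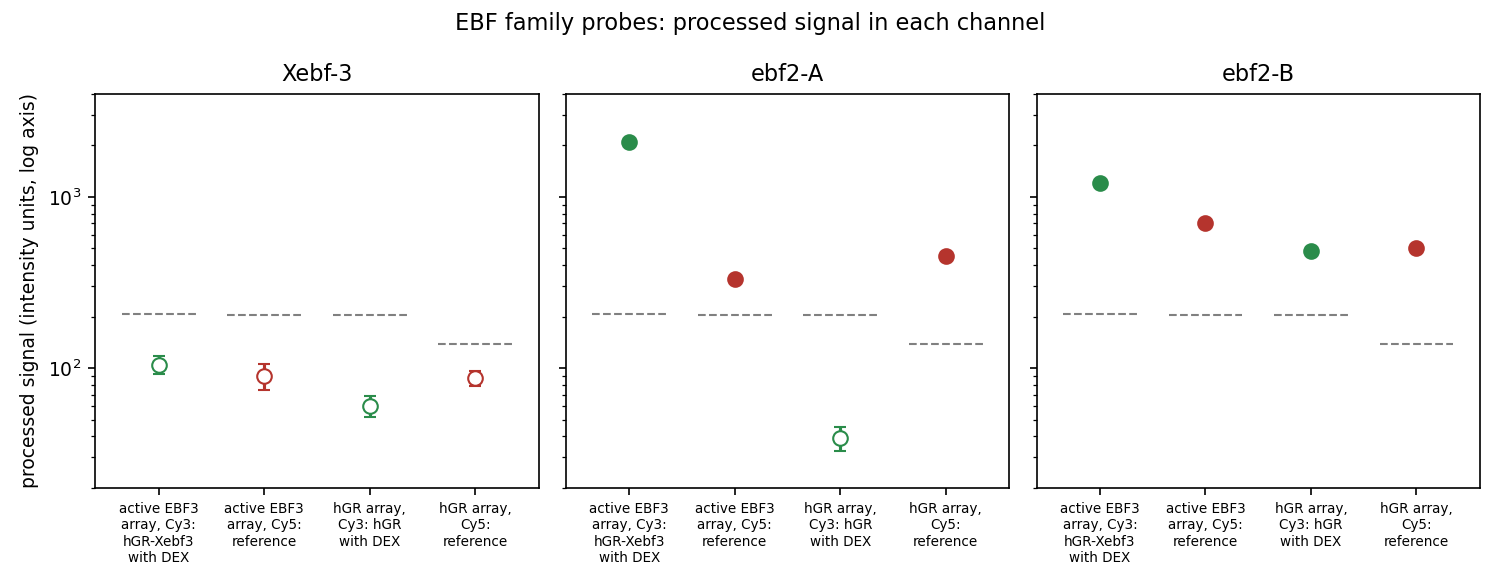
Processed signal (intensity units, log axis) of the 3 EBF family probes in each channel of each array, with the software's spot error as bars. Filled points were well above background and open points were not, and the dashed lines mark the lowest processed signal of any probe well above background in that channel. The 4 readings of Xebf-3 and the hGR reading of ebf2-A lie under their lines, and the reading of ebf2-A in hGR-Xebf3 caps with DEX (2084) is the highest of the 12.

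The Xebf-3 probe is annotated to the mRNA for XEBF-3, the gene whose coding region was injected as the fusion. Its RefSeq name is *ebf3.L*, and a second copy, *ebf3.S*, is listed in RefSeq with no probe matched here. On the active EBF3 array the probe read 104.5 ± 12.3 in Cy3 and 90.0 ± 16.0 in Cy5, where the lowest signals of probes well above background were 206 and 204. On the hGR array it read 60.2 ± 8.39 in Cy3 and 87.0 ± 9.00 in Cy5, where those lowest signals were 205 and 139. None of the 4 was well above background, and the net signals were 1.19, 0.64, 0.59 and 0.09 SD of the background. In 3 of the 4 the software had put a surrogate in place of a measured signal. No fold change is therefore given for *ebf3*.

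The caps of 3 of those 4 readings had been injected with hGR-Xebf3 mRNA, namely hGR-Xebf3 with DEX and the reference on each array. The probe was thus short of the background limit in caps that had received the message, and hGR caps with DEX, which had not received it, read no differently by the flag. The stretch of the mRNA that the probe covers is not given in the sources used here, so whether it lies in the injected coding region is unknown. Nothing on the labels, on the injected message or on the caps' own *ebf3* can be read from it.

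The ebf2-A probe is annotated to the mRNA for XEBF-2 and ebf2-B to that for XCOE2. By their endings, the 2 names refer to the duplicated copies of *ebf2* in this species with a doubled genome. RefSeq lists EBF-2-A and Xebf-2 only under *ebf2.S*, and EBF-2-B only under *ebf2.L*. By these names ebf2-A is likely *ebf2.S* and ebf2-B would be *ebf2.L*. However, RefSeq lists Xcoe-2, the name in the annotation of ebf2-B, only under *ebf2.S*. The copy that ebf2-B stands for is therefore not settled. Whether either probe also takes up the transcript of the other copy was not tested.

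On the active EBF3 array ebf2-A read 2084 ± 50.7 in hGR-Xebf3 caps with DEX and 331 ± 14.5 in the reference, both well above background. The other array gave 39.0 ± 6.39 in hGR caps with DEX and 451 ± 27.1 in the reference, of which only the second was well above background. The highest of the 4 was thus that of active EBF3, both references lay between, and the reading of hGR caps was the lowest. Before normalization, the background-subtracted signals were 148 and 24.9 with active EBF3 and its reference, and −2.15 and 22.2 with hGR and its reference, so the spot in hGR caps was dimmer than its own background. The reference readings stood 3.86 and 3.72 SD over background, not far past the limit of 2.6 SD, whereas the reading of active EBF3 stood 21.2 SD over it. The size of every ebf2-A ratio rests on these faint reference readings.

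**Figure D2:**
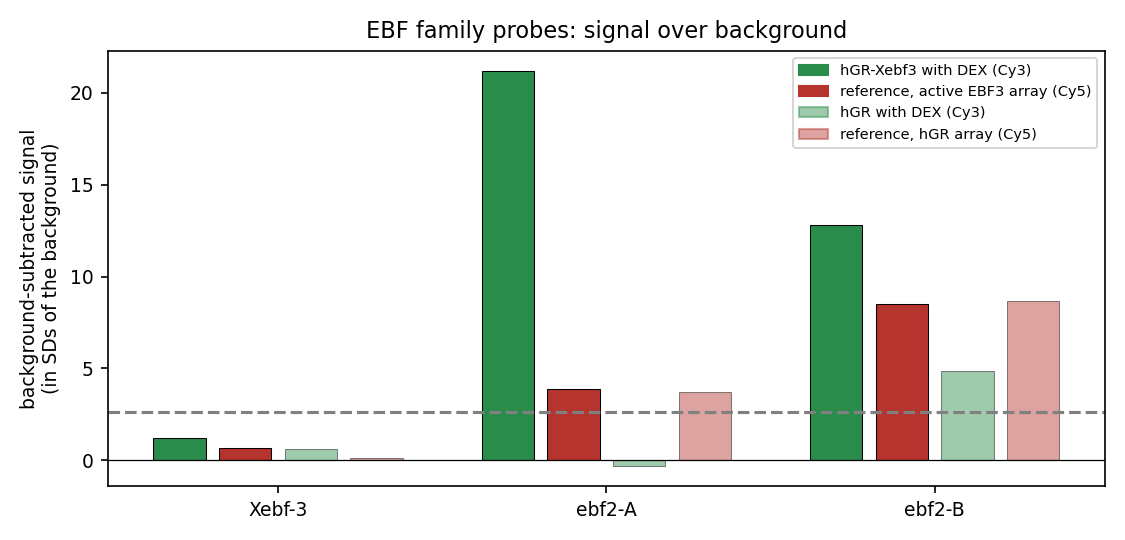
Background-subtracted signal of each EBF family probe in units of the SD of the background, for the 4 channel readings, with the limit of 2.6 SD dashed. Bars for ebf2-A reach 21.2 SD with active EBF3, 3.86 and 3.72 SD in the 2 references and −0.34 SD in hGR caps, and all 4 bars of Xebf-3 are under the limit.

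The ebf2-A transcript was thus 6.29-fold higher with active EBF3 than in the reference, a log2 ratio of 2.65 ± 0.28. On that array 450 of 21283 uniform probes passed 2-fold upward (2.11%) and 432 downward (2.03%). Among the 10690 probes well above background in both channels, as ebf2-A was, 268 were at least 2-fold higher (2.51%). A higher ratio than that of ebf2-A was found for 83 probes, 0.39% of those on the array. With another background correction and dye normalization (normexp with an offset and loess) the log2 ratio of ebf2-A was 1.43, still past 2-fold, and with plain median centring it was 2.59.

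By the processed signals, ebf2-A read at least 2.20-fold under the reference in hGR caps with DEX. This is a bound, because the Cy3 reading was not well above background, and it sets the reference against the lowest Cy3 signal that a probe well above background had on that array. Of the 21343 uniform probes of that array, 870 passed 2-fold downward (4.08%) and 217 upward (1.02%). Of the 1858 with Cy5 but not Cy3 well above background, as for ebf2-A, 178 had such a ratio (9.58%), and 41 had a bound of at least 2-fold lower (2.21%), of which 32 had a larger one than ebf2-A. With normexp and loess the log2 ratio was −0.46, which is short of 2-fold and of the bound. The direction was the same, but the Cy3 spot was dimmer than its background, which all but sets the direction in advance. The size was not settled. The bound also rests on the processed reference reading of 451, from a background-subtracted signal of 22.2. On that array the reference of ebf2-B had a background-subtracted signal of 57.4 and a processed signal of 501. Before normalization the median log2 ratio of Cy3 over Cy5 on that array was −0.60, against −0.02 on the active EBF3 array. The bound thus depends on the scaling of faint signals and is no firm lower limit on the transcript. The part of these values in the bound was not tested.

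The same reference RNA label was carried by both Cy5 readings, and they differed for ebf2-A. After a normalization across the 2 arrays the reference of ebf2-A was 1.67-fold higher on the hGR array, a log2 difference of 0.74, and 0.311% of the 11243 probes differed by more. The background-subtracted signals differed the other way, with a ratio of 0.894 for the hGR array over the active EBF3 array. Gene spots within 5 rows and columns of ebf2-A had a median log2 ratio of −0.20 with active EBF3 and −0.36 with hGR, against −0.09 and −0.06 over all uniform probes. The part of these values in the ratios of ebf2-A was not tested.

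The third comparison set hGR-Xebf3 caps with DEX against hGR caps with DEX. These differed in EBF3, in the amount of injected mRNA and in the slide, which cannot be told apart. The direct comparison of the Cy3 readings gave ebf2-A at least 8.28-fold higher with active EBF3, and the ratio to the reference, with the bound on the hGR array, gave at least 13.8-fold. The difference of the log2 ratios as deposited was 6.19, but this rests on the surrogate in hGR caps and is not a measured size. By that difference 1087 of 21219 probes were at least 2-fold higher with EBF3 (5.12%). With normexp and loess the log2 difference was 1.89, under both bounds (3.05 and 3.79 in log2). The bounds therefore hold for the processed signals only and are no firm lower limits on the transcript.

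**Figure D3:**
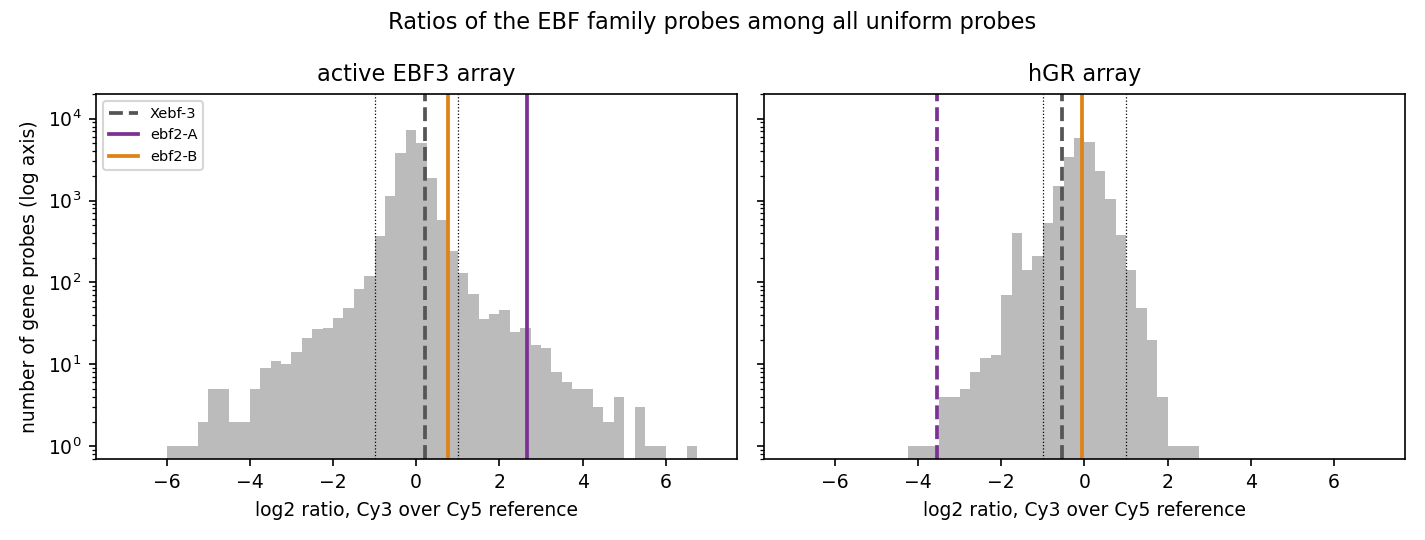
Number of uniform gene probes (log axis) by log2 ratio of the processed Cy3 signal over the Cy5 reference on each array, in bins of 0.25, with the ratios of the 3 EBF family probes as vertical lines and the 2-fold limits dotted. A dashed line marks a ratio in which a channel was not well above background. The line of ebf2-A lies at 2.65 in the left panel (active EBF3) and, dashed, at −3.53 in the right panel (hGR), while those of ebf2-B lie at 0.77 and −0.05.

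The ebf2-B probe was well above background in all 4 readings and is the better measured of the *ebf2* pair. It read 1201 ± 36.6 in hGR-Xebf3 caps with DEX and 706 ± 21.8 in the reference on the active EBF3 array. The hGR array gave 483 ± 24.0 in hGR caps with DEX and 501 ± 13.0 in the reference. Caps with active EBF3 gave the highest of the 4 readings and hGR caps the lowest, the latter close to its reference.

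The ratio of ebf2-B on the active EBF3 array was 1.70-fold, a log2 ratio of 0.77 ± 0.21, which is short of the 2-fold limit. It was 1.04-fold lower on the hGR array, a log2 ratio of −0.05 ± 0.23, which the spot error does not set apart from no difference. Of all uniform probes, 3.15% had a higher ratio than ebf2-B with active EBF3 and 49.7% with hGR. The difference of the 2 log2 ratios was 0.82 ± 0.31 (1.77-fold higher with EBF3), and the direct comparison of the Cy3 readings gave 2.03-fold, on either side of the limit of 2-fold. With normexp and loess the log2 ratio was 0.41 with active EBF3 and −0.02 with hGR. The reference of ebf2-B differed by 1.15-fold between the arrays, and 14.4% of probes differed by more.

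The *ebf2* pair therefore did not give the same ratio. On the active EBF3 array the log2 ratio of ebf2-A was larger than that of ebf2-B by 1.89 ± 0.35, or 3.70-fold, where the error joins both spot errors. With median centring this gap was 1.89 and with normexp and loess 1.02. The gap exceeds the spot errors, and with 1 array its spread between caps is unknown. With hGR the gap rests on the reading of ebf2-A at background and is given no size.

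**Figure D4:**
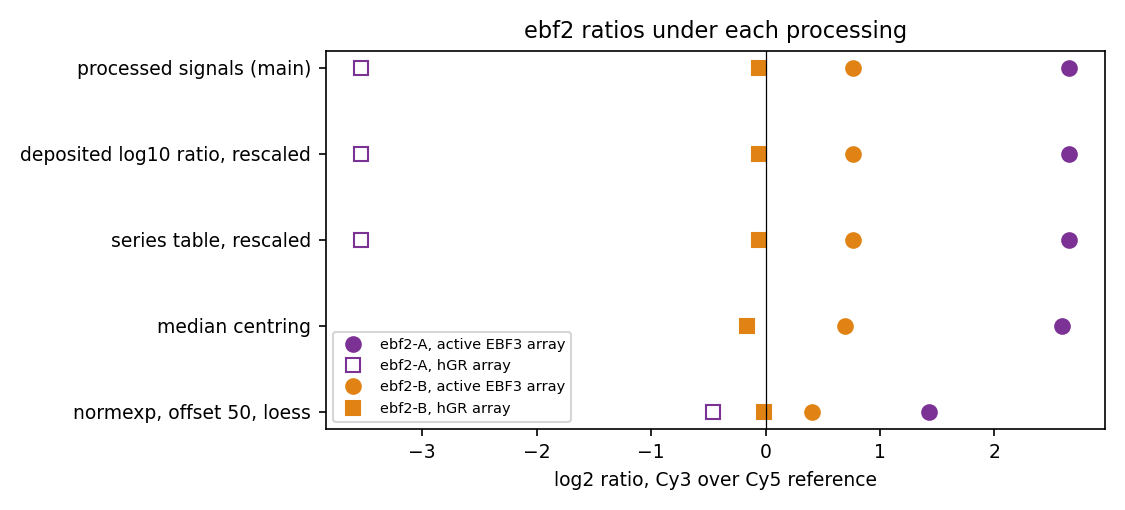
Log2 ratio of Cy3 over the Cy5 reference for ebf2-A and ebf2-B on both arrays, under the main processing and each alternative. Open squares mark ebf2-A on the hGR array, where Cy3 was not well above background, and median centring gives no value there since the net signal was below 0. Normexp with an offset brings all 4 ratios nearer to 0, with ebf2-A at 1.43 and −0.46 and ebf2-B at 0.41 and −0.02.

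Probes with a pattern like that of ebf2-A were sought by the distance between their 2 log2 ratios and those of ebf2-A, over the 2 arrays. Only annotated, uniform and unsaturated probes with the same background flags as ebf2-A in all 4 readings were considered (157 of 621). The nearest was MGC69003, at a distance of 1.12, whose accession the study lists as *aml1*, the runt factor Runx1. It read 27929 with active EBF3 and 2396 in the reference, which is 11.7-fold higher. Its reading in hGR caps (274) was not well above background, at least 7.19-fold under the reference (1973). The next were menF, a mesendoderm nuclear factor (1.88), and Bix4, a homeobox factor of mesendoderm (2.25). Xmab-21, of the Mab-21 family (2.31), and XGC-2, a guanylyl cyclase (2.45), followed. With active EBF3, menF was 5.90-fold and XGC-2 2.40-fold higher than the reference. Bix4 (1.59-fold) and Xmab-21 (1.32-fold) stayed inside the 2-fold limit there, so they did not share the rise of ebf2-A. Even the nearest of these lay more than 1 log2 unit away, and the ebf2-A coordinate on the hGR array rests on a surrogate.

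Genes of the pathway in which EBF factors act were read beside the family, in 4 lists (proneural genes, the Notch pathway, partners and regulators of EBF, and genes of neuronal differentiation) with 41 probes for 19 of 22 genes or gene families. On the active EBF3 array 10 of 40 uniform probes passed 2-fold upward and 7 downward, against 2.11% and 2.03% of all probes, and 14 of the 40 passed the background limit in neither channel. The median log2 ratio of the 40 was 0.05, against −0.09 over all probes. With hGR 2 of 40 were higher and 5 lower, against 1.02% and 4.08% of all probes, with a median of −0.20 against −0.06. The study itself had picked 5 of these probes as EBF3 targets, and all 5 were among the 10, so their count is not independent evidence of a direction. Without them 5 of 35 were higher and 7 lower with active EBF3, and 2 and 4 with hGR. With active EBF3 a channel was well above background for 4 of those 5 and for all 7. The 35 are not free of the study's choices either. Among the 5 are neurod1-A, of the same family as the picked *neurod* probe, and MGC52771, similar to *lmo4*. The paper also reports *lmo4* and *lhx9* as raised by EBF activity. The *lhx9* probe here, lhx9-A, was not well above background in any channel.

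Among the proneural genes, 2 of 10 probes were at least 2-fold higher on the active EBF3 array and none was lower, where 2.11% and 2.03% of all probes were. MGC82572, which the study picked as a target and lists as *neurod*, a bHLH gene of neuronal differentiation, was 40.2-fold higher than the reference. The neurod1-A probe was 8.36-fold higher. The count of 2 is thus not independent of the study's choice. The reference reading of MGC82572 was 510 on that array and 91.8, not well above background, on the hGR array. The neurogenin probes X-NGNR-1a and X-NGNR-1b, for genes known to act before *ebf2*, had log2 ratios of 0.13 and −0.50, and neither was well above background in Cy3 on either array. In hGR caps neurod1-A was not well above background. Its bound of at least 1.28-fold lower than the reference (−0.35 in log2) was smaller than the spot error of 0.40, so no difference is read from it.

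In the Notch list, 5 of 12 probes were at least 2-fold lower on the active EBF3 array and none was higher, against 2.03% and 2.11% of all probes. The other 7 had log2 ratios from −0.73 to 0.90, the highest being that of the receptor probe notch1-A-prov. The median log2 ratio was −0.60 over the 12 probes. Over those measured in both channels, a set without esr10-A and ESR-7, it was −0.09. MGC52561, similar to the ligand Delta-like 1, read 920 against 7355 in the reference. The lower probes of the hairy/enhancer of split family, repressors that act downstream of Notch, were esr10-A (at least 13.8-fold), ESR-6e (a log2 ratio of −2.81), ESR-7 (at least 5.60-fold) and MGC53782 (2.24-fold). In hGR caps ESR-7 and ESR-6e were also lower than the reference, by 2.68-fold and 2.65-fold, as was XHR1-B by 2.05-fold. There esr10-A was 1.99-fold and MGC53782 1.81-fold lower, and LOC398258 (*hes4.L*) was 2.01-fold higher. The spot of LOC398258 on the other array was not uniform and is left out.

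Of the partners, Runx1 (MGC69003) is described above. E12 (MGC52608), a partner of bHLH proteins, had a log2 ratio of −0.23 with active EBF3, and its spot for hGR was not uniform. The probes for *pax5* and *foxo1*, genes joined to EBF1 in B cells of the mouse, were not well above background in any channel. No probe was matched for the zinc finger proteins known to bind EBF factors, *znf423* and *znf521*.

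Among the genes of neuronal differentiation, 7 of 14 probes were at least 2-fold higher on the active EBF3 array and 2 lower, beside 2.11% and 2.03% over the whole array. The study had itself picked MGC68948, LOC495280 and LOC397995 as EBF3 targets, so the 7 are not independent evidence of a direction. LOC495280 (*nhlh1.L*), a neuronal bHLH gene that the study lists as *nscl-1*, was at least 23.3-fold higher. The other *nhlh1* probe, XHEN1 (*nhlh1.S*), was not well above background in any channel. MGC68948, which the study lists as peripherin, an intermediate filament, was 16.3-fold higher. MGC52771, similar to the LIM-only gene *lmo4*, was 8.21-fold higher, whereas the other probe of that family, lmo4-A (*lmo4.2.L*), was measured in both channels with a log2 ratio of 0.05. Also higher was elrC (*elavl3*), an RNA-binding protein of neurons, by 6.07-fold. The neurofilament probes LOC397995 (*nefm.S*) and LOC397822 (*nefl.L*) were at least 2.85-fold and at least 2.07-fold higher, while LOC397994 (*nefm.L*) had a ratio past 2-fold with neither channel well above background. The 2 lower probes were LOC397982 (*myt1.S*), a zinc finger gene of neuronal precursors (at least 2.87-fold), and plasticin-prov (*prph.L*), annotated as peripherin (at least 2.47-fold). In hGR caps only MGC52771 was past 2-fold, 2.19-fold higher, and the ratio of elrC was 1.97-fold.

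**Figure D5:**
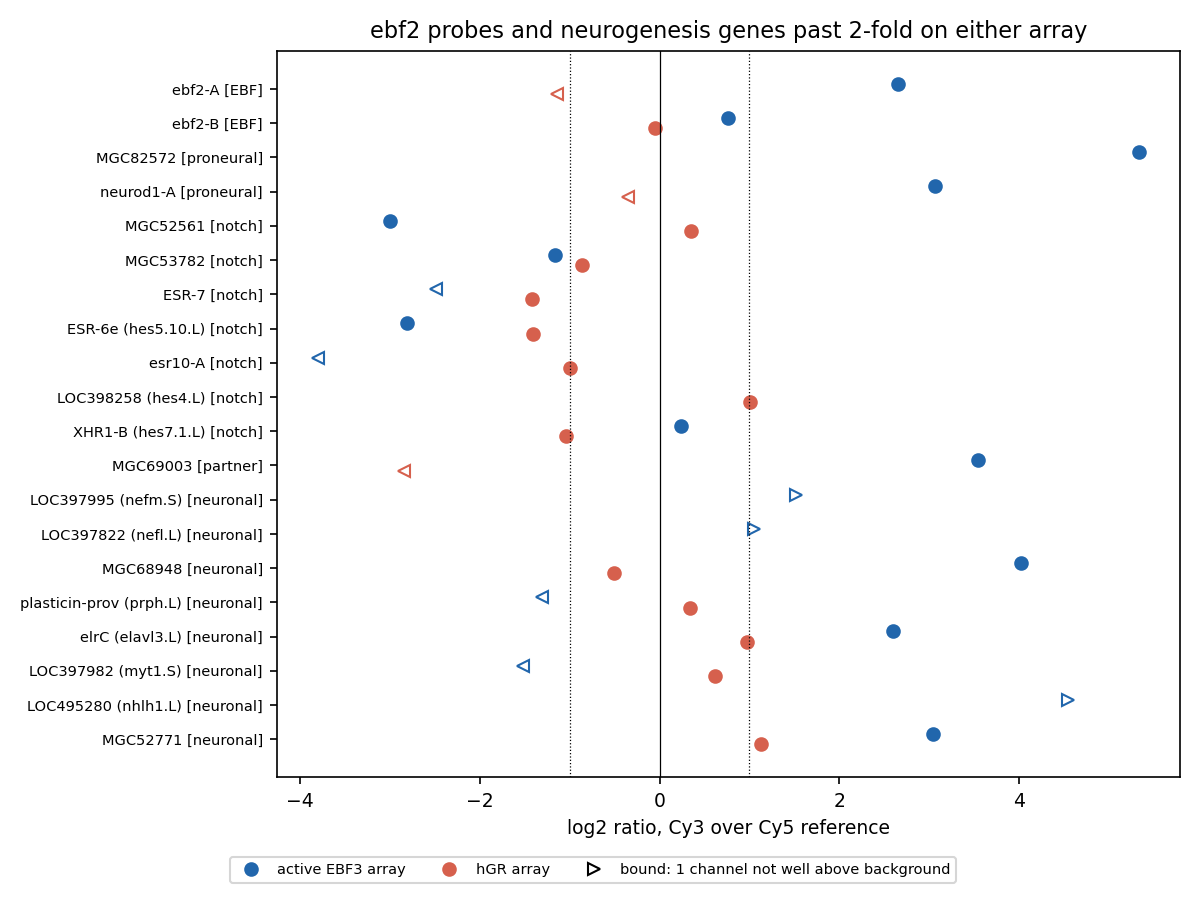
Log2 ratio of Cy3 over the Cy5 reference for both *ebf2* probes and for the listed genes that passed 2-fold with a channel well above background on either array. Circles are ratios with both channels measured, triangles are bounds and point away from 0, dotted lines mark 2-fold, and a reading with no usable value is left out. The ratio of ebf2-A (2.65) lies under those of MGC82572 (5.33), MGC68948 (4.02), MGC69003 (3.54), neurod1-A (3.06) and MGC52771 (3.04). It also lies under the bound of LOC495280 (4.54), while the ratio of ebf2-B (0.77) lies inside the 2-fold lines.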

How the data were processed

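Two-colour arrays were grouped by the treatment stated per the labels, with the treated sample in Cy3 and untreated hGR-Xebf3 caps in Cy5. Per the file headers, spot intensity was extracted with Feature Extraction 8.1.1.1 at 10 µm per pixel, another version and resolution than the study's methods name. The deposited processed intensity was background-subtracted, spatially detrended and LOWESS-normalized (smoothing factor 0.25), with surrogate values put in for some dim spots. Deposited log10 ratios are of Cy5 to Cy3. The authors' series table equalled it with the sign turned in 100% of 33063 values (within 1e-05), with medians of -0.001 on both arrays.

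The measure was the log2 ratio of processed Cy3 over Cy5. Control features and non-uniform spots were left out, and 2-fold was the limit, after the study's methods. Bounds ("at least") set the brighter channel against the dim value or, if higher, the lowest signal of the channel's probes above the background limit, after Aquantile normalization in limma 3.58.1 and R 4.3.3. Without dye swaps they are open to dye bias, and they hold for the processed signals only. Where neither channel passed the background limit the fold was left out. The single array of each comparison allowed no test, and the number of arrays limits the precision. The counting step was checked on simulated ratios.

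Members and lists were chosen with earlier results of these data known. Named were all EBF probes, list members well above background in a channel and past 2-fold on either array, and the 5 probes nearest to ebf2-A. Probes X-NGNR-1a, X-NGNR-1b, MGC52608, notch1-A-prov, lmo4-A, *pax5*, *foxo1*, *ncam1* and LOC397994 and the markers were named outside this rule, after their values were seen. The same holds for XHEN1 and lhx9-A. Names come from the array design or RefSeq (Xenopus_laevis_v10.1, names only). A probe of the pathway lists is not reported here. Genome positions and probe sequences were not used here. Alternatives were normexp (offset 50) with loess, median centring, the log10 ratio, the series table, filters on dim probes, non-uniform spots kept, and 5-fold.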

Additional observations from a re-analysis of the deposited data

Results flagged for a closer look

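Both arrays carried a reference of the same label, and 4 of the named probes had ratios past 2-fold in opposite directions on them. For ebf2-A the log2 ratio on the active EBF3 array exceeded that on the hGR array by 6.19, for MGC69003 (Runx1) by 6.39, for menF by 4.21 and for XGC-2 by 2.78. Each was higher than the reference in hGR-Xebf3 caps with DEX and lower than it in hGR caps with DEX. The probes menF and XGC-2 were named only because their ratios lie near those of ebf2-A, whereas MGC69003 is also in the pathway lists. That these 2 share the pattern of ebf2-A thus follows in part from how they were chosen. How common this pattern was over all probes is not reported here, so the 4 are examples and not a count to be read as a result. With 1 array per group the difference was not tested. None of the 4 was well above background in Cy3 in hGR caps, so the sizes are not measured, and the bounds of menF and XGC-2 there were only at least 1.30-fold and at least 1.27-fold lower.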

How the results depend on the processing

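No paired analysis was possible because a group held a single array, and for that reason no replicate could be left out. Of 22 values of ebf2-A and ebf2-B under the alternatives, 17 stayed within 0.17 log2 units of the main value. That limit is the SD of the repeated reference. The other 5 moved, and 0 of the 22 changed direction. For these probes the deposited log10 ratio and the series table repeat the main values, so their agreement was fixed in advance. Only normexp with loess and median centring were other processings of these probes. All 5 that moved came from normexp with loess, where ebf2-A was 1.43 (active EBF3 array), −0.46 (hGR array) and 1.89 (difference), and ebf2-B 0.41 (active EBF3 array) and 0.43 (difference). Median centring gave no value for ebf2-A on the hGR array, and Xebf-3 was given none. The direction of ebf2-A on the hGR array was all but set in advance, since its Cy3 spot was dimmer than its background. The number of probes past 2-fold on the active EBF3 array was 882, against 380 with normexp and loess, 2771 with median centring, 526 with both channels well above background and 227 at 5-fold. On the hGR array it was 1087, against 101, 3499, 240 and 34 under the same settings, 443 with at least 1 channel well above background and 580 from the deposited log10 ratio. Median centring moved the share of higher probes among these from 51.0% to 68.2% on the active EBF3 array. On the hGR array it turned 217 higher and 870 lower into 2826 and 673 (80.8% higher), the log10 ratio gave 37.4% higher, both channels above background 37.5% and 5-fold 2.94%. Of the pathway probes, 17 were past 2-fold on the active EBF3 array, against 11 with normexp and loess and 9 with both channels well above background. On the hGR array 7 were, against 2 with normexp and loess, 11 with median centring and 1 at 5-fold. Filters and the 5-fold limit lower counts by construction, and other causes were not tested. Signal over background limits Xebf-3 in every reading and ebf2-A in hGR caps.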
